A study of Sus scrofa with 23 samples.

Results

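SULT1E1 (ENSSSCG00000039341) encodes estrogen sulfotransferase, and it is 1 of the 8603 genes in the FPKM table of 23 porcine oocyte and embryo libraries. The gene was chosen by its measured values, because its rise from the 4-cell to the 8-cell stage in the in vivo embryos was already known to be the largest in the table, so its levels are given here as a description without tests. The deposited table is labelled as one of DEG genes (differentially expressed genes), but the rule by which they were chosen is not given in the sources used here. Ranks and shares below are therefore over these genes alone, and a gene absent from the table was not necessarily unexpressed. Every condition was 1 library here, without replicates, and each counting interval below covers the error of counting fragments only. The authors also sequenced replicates of some stages, which were not used here.

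The libraries formed 3 embryo groups. The IV-D group held in vivo matured oocytes and in vivo fertilized embryos of the Duroc breed at the 1-cell, 2-cell, 4-cell, 8-cell and morula stages and 2 parts of the blastocyst, called IT and TE, for 8 libraries in all. IT was the piece of a hand-cut blastocyst that contained the inner cell mass (ICM) together with trophectoderm, and TE was the piece of trophectoderm alone. The NT-D group (8 libraries) and the NT-LW group (7 libraries) were somatic cell nuclear transfer embryos, that is clones, whose donor nuclei came from ear fibroblasts of a Duroc boar and a Laiwu boar, respectively. The NT-D oocyte library was made from in vitro matured recipient oocytes of hybrid sows and is the only oocyte library for the clones, of either donor. Limits of these groups as models follow from the collection. Each library pooled several oocytes or embryos, and each clone group had 1 nuclear donor and was male. The in vivo embryos were paternal half-siblings of mixed sex flushed from sows, and the clones were cultured in vitro.

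Estrogen sulfotransferase is a cytosolic enzyme that transfers a sulfonate group from the donor PAPS to estrogens, and sulfated estrogens do not activate the estrogen receptors. It belongs to the SULT1 family of phenol-type sulfotransferases, and its action is opposed by steroid sulfatase, which removes the group again. In the pig, embryos release estrogens around the time of maternal recognition of pregnancy, and the endometrium is a known site of SULT1E1 expression.

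On the Sscrofa11.1 assembly, RefSeq placed SULT1E1 on chromosome 8, 66811536 to 66838181, on the minus strand, with 5 transcript models of 9 exons each. No annotated gene overlapped it, and the nearest gene on the other strand lay 30.2 kb away. The 250 bases before its most upstream annotated start, chr8:66838182-66838431 on the minus strand of Sscrofa11.1 (RefSeq), are printed 5′ to 3′ because the gene went from almost no fragments to the highest levels within 1 stage. Capitals mark the match to a searched motif.
SULT1E1 promoter: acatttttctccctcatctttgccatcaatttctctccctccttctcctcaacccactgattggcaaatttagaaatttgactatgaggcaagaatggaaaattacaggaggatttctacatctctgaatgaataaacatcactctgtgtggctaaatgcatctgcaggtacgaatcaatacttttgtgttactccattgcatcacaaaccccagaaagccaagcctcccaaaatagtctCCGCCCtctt
The window was 41.2% G and C, against a median of 57.6% over the windows of the same length at 19556 protein-coding genes, of which 12% had less. Of 9 motifs searched on both strands, 1 was found, the GC box GGGCGG of Sp1 and KLF factors, on the opposite strand with its first base 10 bases before the start. That motif occurred in 45.9% of the 19556 windows. The letters of the TATA box (TATAAA), the nuclear receptor half-site (AGGTCA), the TEAD site (GGAATG), the GATA site (AGATAA), the KLF box (CCACCC), the AP-1 site (TGANTCA), the homeobox site (TAATCC) and the E-box (CACGTG) were not in this window.

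In the oocytes and cleavage embryos up to the 4-cell stage, SULT1E1 was at or near 0. The IV-D oocyte, 1-cell and 2-cell libraries had 0 fragments, and so did the NT-D oocyte, 1-cell, 2-cell and 4-cell libraries. Taking 3 fragments as the limit that a count of 0 allows, the limit stood at 0.0345 to 0.0528 FPKM in the 11 libraries up to the 4-cell stage. The IV-D 4-cell library had 6 fragments (FPKM 0.10), and the NT-LW 1-cell, 2-cell and 4-cell libraries had 2, 2 and 6 fragments (FPKM 0.0259, 0.0261 and 0.0830). The highest level in the oocytes of either source and in the embryos before the 8-cell stage was therefore 0.10 FPKM.

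From the 8-cell stage on, the transcript was abundant. In IV-D embryos SULT1E1 was at 1473 FPKM in the 8-cell library (114384 fragments), 1061 in the morula (84472 fragments) and 699 in IT (51243 fragments). The TE library of the same group had 10 fragments, an FPKM of 0.177. The in vivo profile thus had its peak at the 8-cell stage. There SULT1E1 ranked 34 among the 8603 genes and took 0.557% of the library total implied by the FPKM values.

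In the clones the transcript became abundant at the same stage, at levels below IV-D in the 8-cell libraries, IT and the NT-D morula. The NT-LW morula was close to that of IV-D, and TE of both clone groups was above IV-D TE. NT-D embryos had 342 FPKM at the 8-cell stage (24909 fragments), 423 in the morula (30177 fragments), 44.3 in IT (3548 fragments) and 1.49 in TE (88 fragments). NT-LW embryos had 287 FPKM at the 8-cell stage (17748 fragments), 986 in the morula (65706 fragments), 69.3 in IT (5626 fragments) and 8.23 in TE (549 fragments). On the deposited scale the highest library of both clone groups was the morula. There SULT1E1 ranked 62 in NT-LW and 159 in NT-D.

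**Figure D1:**
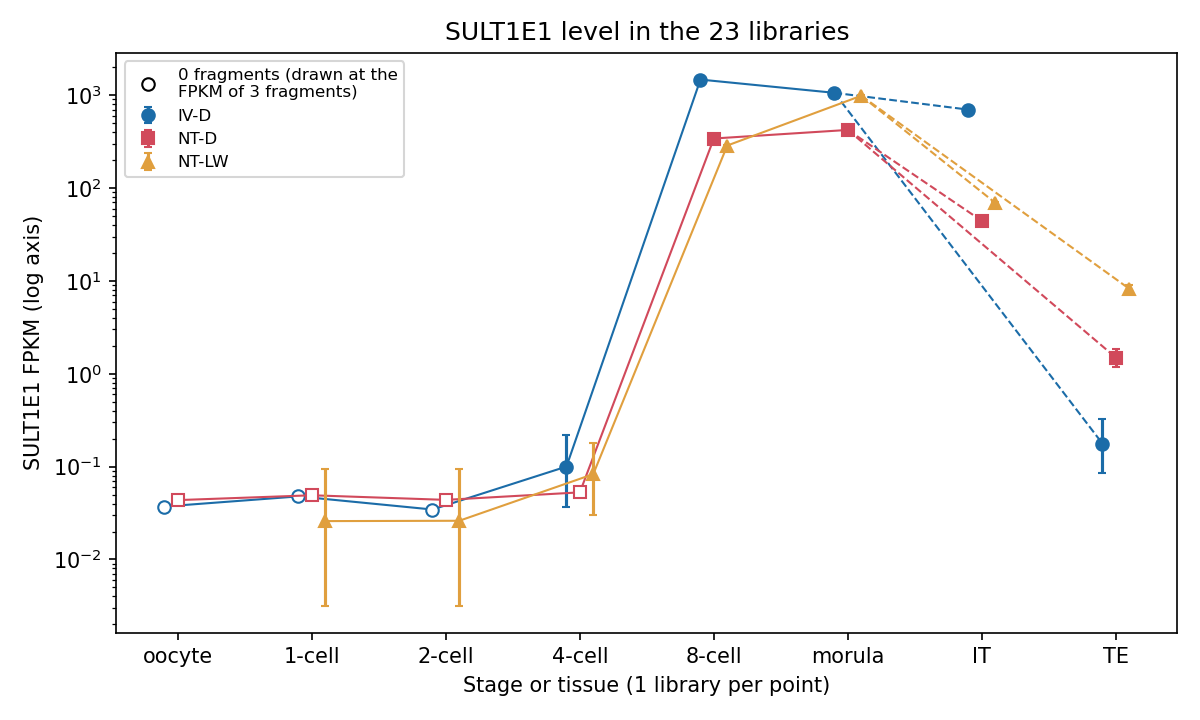
SULT1E1 level (FPKM, log axis) by stage in the IV-D (circles), NT-D (squares) and NT-LW (triangles) libraries, 1 library per point; bars are exact Poisson 95% intervals on the fragments, open points are libraries with 0 fragments drawn at the FPKM of 3 fragments, and dashed lines join the morula to each part of the blastocyst. The highest library before the 8-cell stage was at 0.10 FPKM, all 9 libraries of the 8-cell, morula and IT stages lay between 44.3 and 1473, and the 3 TE libraries lay between 0.177 and 8.23.

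Ordered by level, the 12 libraries from the 8-cell stage on filled the first 12 places. IV-D 8-cell stood first, followed by the IV-D morula, the NT-LW morula, IV-D IT, the NT-D morula, NT-D 8-cell, NT-LW 8-cell, NT-LW IT, NT-D IT, NT-LW TE, NT-D TE and IV-D TE. Down to NT-D TE each library differed from the next beyond the counting interval. IV-D TE (0.177, interval 0.0849 to 0.326) and IV-D 4-cell (0.10, interval 0.0368 to 0.218) did not, nor did any neighbours below them. How far 2 libraries of 1 condition would differ was not measured, and in pooled embryos fewer cells that express a gene and less RNA per cell cannot be told apart.

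The rise between the 4-cell and the 8-cell stage was the first in rank among all compared genes in each of the 3 groups. A gene was compared where at least 1 of the 2 libraries reached 1 FPKM, and it was called where log2(FPKM + 1) differed by more than 1, a scale that understates the change of low genes. In IV-D the difference was 10.39 on that scale, a ratio of 14708 in FPKM (95% counting interval 6757 to 40078), and the next gene, CKB, which encodes creatine kinase B, differed by 8.33. In NT-D it was 8.42, and SULT1E1 was at least 6468-fold higher at the 8-cell stage against a limit of 3 fragments in the 4-cell library. In NT-LW it was 8.06, a ratio of 3461 (1590 to 9433). By the same rule 35.0% of 7995 compared genes were higher at the 8-cell stage in IV-D, 31.4% of 7830 in NT-D and 28.1% of 7848 in NT-LW, and the median differences of all compared genes were 0.25, 0.13 and 0.05.

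Oocyte transcripts, which are cleared from the embryo over these stages, moved at the same step. Of 24 listed genes such as ZP2, ZP3 and GDF9, 18 were in the table, and all 18 were called lower at the 8-cell than at the 4-cell stage in each group, beside 28.1%, 28.7% and 25.6% of all compared genes in IV-D, NT-D and NT-LW. Their summed level in the 8-cell libraries was 162 FPKM in IV-D, 989 in NT-D and 1445 in NT-LW, so the group with the most SULT1E1 had the least of these transcripts. Their part in the SULT1E1 difference was not tested.

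The next step, from the 8-cell stage to the morula, went down in IV-D and up in NT-LW, while its direction in NT-D depended on the scaling. SULT1E1 in the IV-D morula was 0.47 lower on the log2(FPKM + 1) scale than at the 8-cell stage, a ratio of 1.39 (1.38 to 1.40). In NT-LW it was 1.78 higher, a ratio of 3.43 (3.38 to 3.49). In NT-D it was 0.31 higher as deposited, a ratio of 1.24 (1.22 to 1.26), but 0.17 lower with median-ratio scaling and 0.21 lower with trimmed-mean scaling. The median of all compared genes was itself 0.45 higher in the NT-D morula. Against that median the SULT1E1 difference in NT-D was −0.14, in IV-D −0.45 and in NT-LW 1.59. The NT-LW step alone passed the fold rule, at place 674 of 7708 compared genes from the top, 22.4% of which were called higher.

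SULT1E1 in the clones was set against IV-D at each stage, and since both clone groups were compared with the same IV-D library, the values are given side by side. At the 8-cell stage it was 4.31-fold lower in NT-D (4.25 to 4.37) and 5.13-fold lower in NT-LW (5.05 to 5.21), or −2.10 and −2.36 on the log2(FPKM + 1) scale. By this rule 17.4% of compared genes were lower in NT-D and 17.3% in NT-LW at that stage, and SULT1E1 stood at places 243 of 7441 and 220 of 7618 from the lowest.

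At the morula stage the clone groups parted. SULT1E1 was 2.51-fold lower in NT-D than in IV-D (2.48 to 2.54, −1.33 on the log2 scale), a call shared by 3.88% of compared genes. In NT-LW the difference was −0.11, a ratio of 1.08 (1.06 to 1.09) that did not pass the rule. Between the clone groups, NT-D was 2.33-fold lower than NT-LW (2.30 to 2.37). The summed oocyte transcripts in the morulae were 50.2 FPKM in IV-D, 926 in NT-D and 171 in NT-LW. The summed trophectoderm markers were 1123, 1556 and 508, so the library with the least SULT1E1 was also the highest in both sums. Their part in the difference was not tested.

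In IT the clones lay further below IV-D than at the 8-cell and morula stages. SULT1E1 was 15.8-fold lower in NT-D (15.2 to 16.3) and 10.1-fold lower in NT-LW (9.82 to 10.4), or −3.95 and −3.32 on the log2(FPKM + 1) scale, at places 14 of 7095 and 28 of 7093 from the lowest. The shares of compared genes called lower were 15.4% in NT-D and 13.7% in NT-LW. Of 17 listed ICM markers 10 were in the table, and their summed level in IT was 201 FPKM in IV-D, 77.0 in NT-D and 95.6 in NT-LW, a ratio of 2.61 and 2.11. These ratios of sums do not hold for each member. OTX2 was at 56.0, 9.56 and 25.3 FPKM in IT of IV-D, NT-D and NT-LW, and GSC at 39.4, 4.29 and 7.32. PDGFRA was at 11.6, 1.66 and 2.22 FPKM, whereas GATA6 was at 37.7, 34.0 and 37.4 and GDF3 at 8.26, 9.68 and 6.73. The IV-D IT library correlated more closely with the IV-D morula (Pearson r = 0.956 over all genes, log10(FPKM + 1)) than with any other late library, NT-D IT and NT-LW IT included (0.932 and 0.934). How much of the SULT1E1 difference goes with the share of ICM cells in the cut piece was not tested.

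In TE the order turned over. SULT1E1 was 46.5-fold higher in NT-LW than in IV-D (25.1 to 97.5), a call made for 6.26% of compared genes in this direction, and 8.44-fold higher in NT-D (4.38 to 18.2), a call made for 3.13%. On the log2(FPKM + 1) scale, which understates these low levels, the differences were 2.97 and 1.08. NT-LW TE in turn was 5.51-fold above NT-D TE (4.39 to 6.98). These are differences between low levels, since the highest of the 3 TE libraries held 8.23 FPKM. The sums of ICM and trophectoderm markers in TE stood in the same order. ICM markers were at 27.7, 42.2 and 53.8 FPKM and trophectoderm markers at 2448, 4075 and 5690 FPKM in IV-D, NT-D and NT-LW. Most of the trophectoderm sum came from PTGES (1042, 2038 and 2724 FPKM), KRT18 (582, 917 and 1593) and KRT8 (549, 735 and 1033). GATA2 and ELF3 stood in that order too. TEAD4 (8.52, 7.47 and 5.90 FPKM), CLDN4, GATA3, DAB2, TFAP2C, TJP1 and GRHL2 did not. Most of the ICM sum came from GATA6 (21.4, 24.0 and 36.3 FPKM), with GDF3 next in the clones (14.0 and 9.08), and neither gene was confined to IT. The part of these markers in the SULT1E1 difference was not tested.

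**Figure D2:**
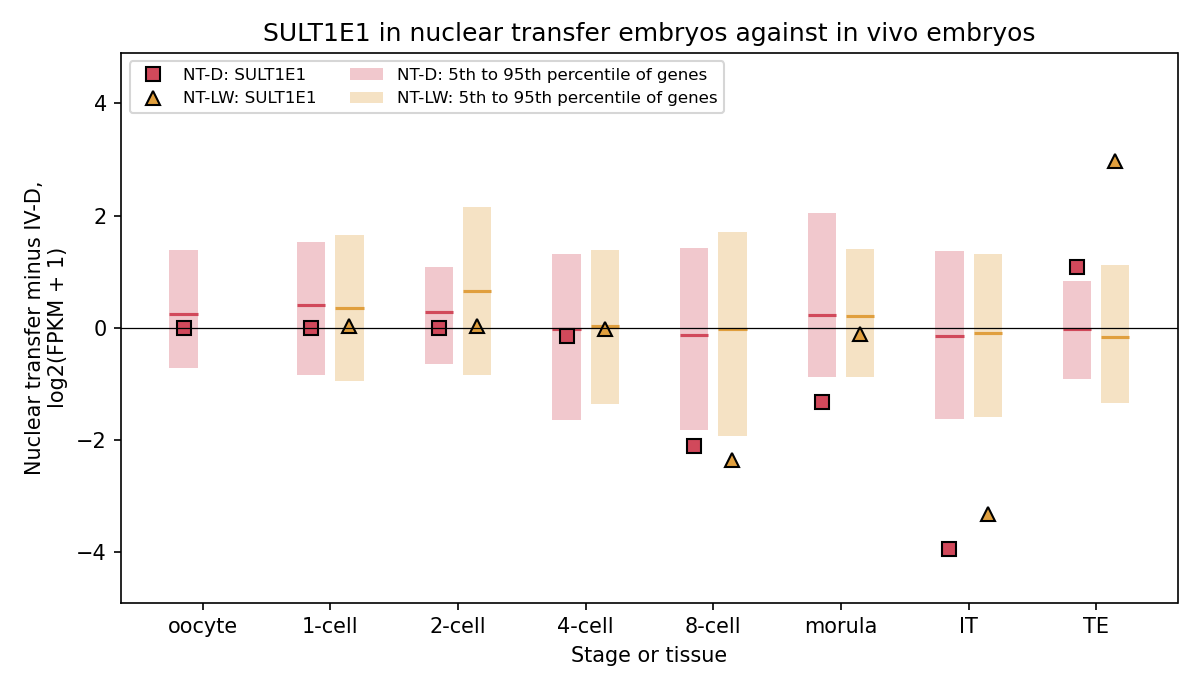
Difference of SULT1E1 between clones and IV-D embryos on the log2(FPKM + 1) scale at each stage, NT-D as squares and NT-LW as triangles, with shaded bars from the 5th to the 95th percentile of all compared genes and lines at their median. SULT1E1 lay below the bars of both groups at the 8-cell stage and in IT, below the NT-D bar in the morula, and above both bars in TE.

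Within the blastocyst, SULT1E1 was higher in the ICM-containing piece than in pure trophectoderm in all 3 groups. IT exceeded TE by 9.22 on the log2(FPKM + 1) scale in IV-D, the highest of 7093 compared genes, with a ratio of 3950 (2148 to 8237). In NT-D the difference was 4.18, place 6 of 6757, with a ratio of 29.7 (24.0 to 37.1). In NT-LW it was 2.93, place 13 of 6801, with a ratio of 8.41 (7.71 to 9.20). The shares of compared genes higher in IT by the rule were 18.0%, 4.32% and 5.07%.

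The listed ICM genes differed in how far they were confined to IT. NANOG, a pluripotency factor, was listed at 0 in the 3 TE libraries and at 9.80, 5.00 and 3.76 FPKM in IT of IV-D, NT-D and NT-LW. OTX2, a homeobox factor of the ICM and epiblast, had a level in TE of 0.290%, 8.34% and 3.46% of that in IT. GSC, another homeobox gene, was listed at 0 in TE of IV-D and NT-D and at 14.2% of its IT level in NT-LW. Other members of the list were well above 0 in TE. KLF4 stood at 16.3%, 21.4% and 28.9% of its IT level and GATA6 at 56.9%, 70.6% and 97.0% in IV-D, NT-D and NT-LW, and GDF3 was higher in TE than in IT in NT-D (14.0 against 9.68 FPKM) and NT-LW (9.08 against 6.73). For SULT1E1 the TE level was 0.0253% of the IT level in IV-D, 3.37% in NT-D and 11.9% in NT-LW. The part of ICM cells in the TE levels of the clones was not tested.

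**Figure D3:**
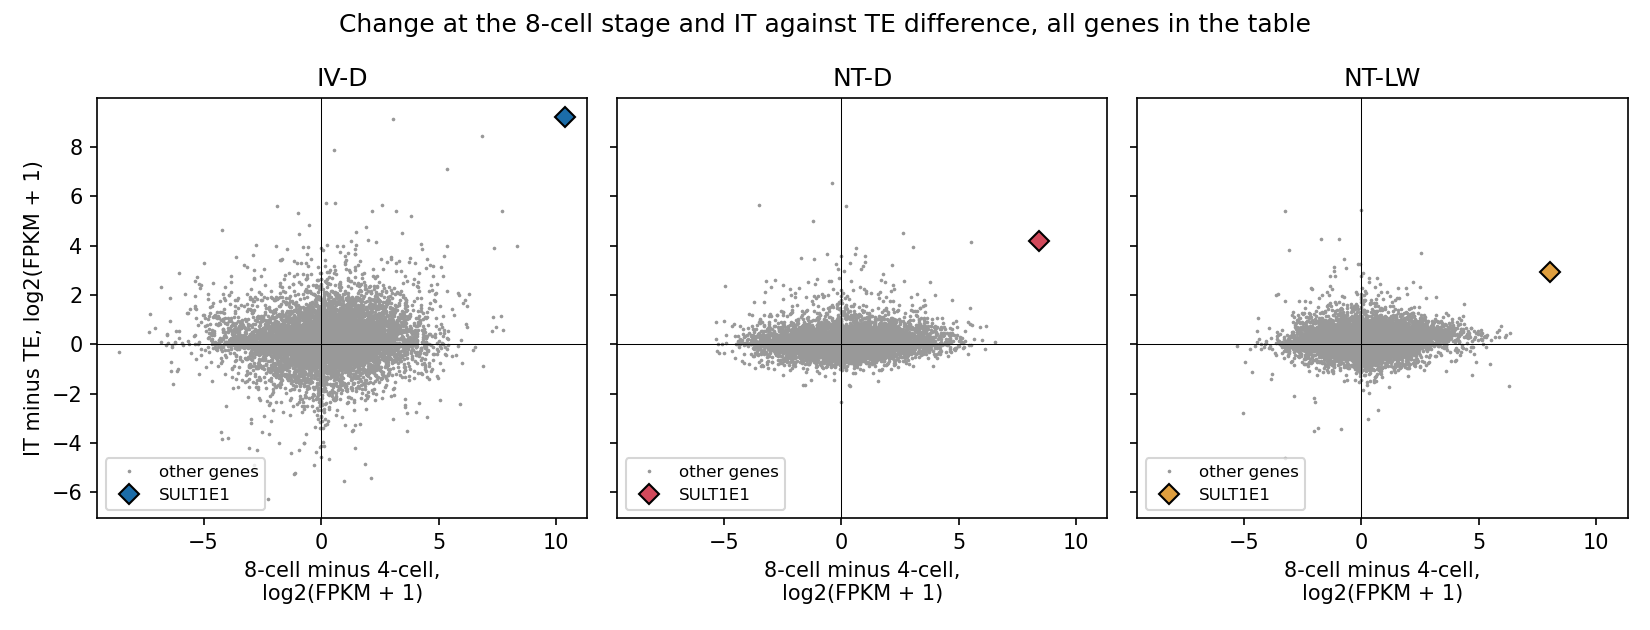
Each gene's difference between the 8-cell and the 4-cell library (x axis) and between IT and TE (y axis), both on the log2(FPKM + 1) scale, in IV-D, NT-D and NT-LW, with SULT1E1 as the large diamond. SULT1E1 was the gene furthest to the right in all 3 panels, at 10.39, 8.42 and 8.06 on the x axis, and at 9.22, 4.18 and 2.93 on the y axis.

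After the morula, SULT1E1 was lower in both parts of the blastocyst, and far lower in TE than in IT. From the morula to IT it differed by −0.60 on the log2(FPKM + 1) scale in IV-D. In NT-D it fell by 3.22 and in NT-LW it fell by 3.81. From the morula to TE it fell by 9.82 in IV-D, the largest fall of 7211 compared genes. In NT-D it fell by 7.41 and in NT-LW it fell by 6.74. The level in IT was 65.9% of that in the morula in IV-D, 10.5% in NT-D and 7.02% in NT-LW. From the morula to IT the median of all compared genes differed by −0.16 in IV-D, −0.64 in NT-D and −0.51 in NT-LW. IT also contained trophectoderm, and its part in the lower IT level was not tested.

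Markers of other cells that a pooled embryo library could carry were looked at beside these levels. SULT1E1 is known from endometrium, and the list for endometrium and oviduct epithelium had 2 of 15 genes in the table, EPCAM, which embryonic epithelium also expresses, and SAL1. In the 4 late IV-D libraries EPCAM was at 45.3 to 105 FPKM and SAL1, a salivary lipocalin, at 0 to 2.07 FPKM. In the clones SAL1 was highest at the 8-cell stage, at 7.40 FPKM in NT-D and 22.4 in NT-LW, and was at 14.0 in the NT-LW morula. Cumulus cell markers (4 of 18 in the table) summed to 23.8 to 39.8 FPKM in the 8-cell libraries, where SULT1E1 was at 287 to 1473, and to 238 to 414 in TE, where SULT1E1 was at 0.177 to 8.23. Most of the sum in TE was PTGS2 (218 to 395 FPKM), a prostaglandin synthase that was at 0.0653 to 1.20 FPKM in the 8-cell libraries and at 38.0 to 98.5 in the morulae. Fibroblast collagen genes COL1A1, COL1A2 and COL3A1 were at most 0.456 FPKM in the 4 late IV-D libraries. In the 8-cell clones COL1A2 was at 1.83 FPKM in NT-D and 1.90 in NT-LW, ACTA2 at 3.97 and 1.78, and VIM at 1.98 and 6.52, against 0.0206, 0 and 1.02 in IV-D. The 9 fibroblast markers in the table summed to 150 FPKM in IV-D and 99.6 and 117 in the clones at the 8-cell stage, most of it from LGALS1. LGALS1, a galectin, is also expressed in many other cells.

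The other genes of sulfate and estrogen metabolism were called in both directions at the 4-cell to 8-cell step. Of 144 genes in 8 lists, 53 were in the table. In IV-D, 45 of them could be compared between the 4-cell and the 8-cell stage, and 13 were higher (28.9%) and 13 lower (28.9%), beside 35.0% and 28.1% of all compared genes. In NT-D 8 of 46 were higher (17.4%) and 16 lower (34.8%), beside 31.4% and 28.7% of all, and in NT-LW 10 of 47 were higher (21.3%) and 13 lower (27.7%), beside 28.1% and 25.6%. The median differences of the listed genes were −0.07, −0.15 and −0.48 on the log2(FPKM + 1) scale.

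Among genes that supply and use the sulfate donor, PAPSS1 was called lower at the 8-cell stage in all 3 groups. PAPSS1, which synthesizes PAPS, was at 42.7 to 112 FPKM in all 11 libraries up to the 4-cell stage and at 7.82, 7.55 and 11.7 FPKM in the 8-cell libraries of IV-D, NT-D and NT-LW. PAPSS2, the second synthase, was below 1 FPKM in all 3 8-cell libraries. SLC35B3, a Golgi transporter of PAPS, was called higher at the 8-cell stage in the 3 groups (4.62, 10.5 and 10.9 FPKM), whereas SLC26A3, an anion exchanger, was called lower in the 3 groups. BPNT1, a phosphatase that degrades the by-product PAP, stayed between 9.16 and 39.9 FPKM over all 23 libraries and was not called. In IV-D, SULT1E1 and PAPSS1 thus stood at 0.10 and 50.6 FPKM at the 4-cell stage and at 1473 and 7.82 at the 8-cell stage.

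The other sulfotransferases and the sulfatases gave few values. Of 13 other cytosolic sulfotransferases only SULT4A1, a brain-type member of the family, was in the table, at no more than 4.22 FPKM in any library. Of 16 sulfatases and their activators 2 were in the table, the lysosomal enzyme IDS and the arylsulfatase ARSK, and neither was called at the 8-cell stage in any group. Steroid sulfatase and the estrogen receptors ESR1 and ESR2 were not analysed here.

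Genes of steroid synthesis and of other routes of estrogen inactivation were in the table at mostly modest levels. CYB5A, cytochrome b5, a cofactor of steroid-synthesizing cytochromes that also has other roles, was the highest, at 81.3 to 1765 FPKM. HSD17B7, which reduces estrone to estradiol and also acts in cholesterol synthesis, was called lower in IV-D (57.7 to 18.7 FPKM) and not in the clones. SRD5A1, a steroid 5-alpha reductase, was called higher in IV-D (0.344 to 7.34 FPKM) and NT-D (1.29 to 6.44). In NT-LW it went from 1.49 to 3.96 FPKM, a difference of 0.996 that fell just short of the rule. Of the genes for other inactivation routes, 2 of 4 compared were called higher in IV-D (HSD17B8 and UGDH), 0 of 4 in NT-D and 5 of 6 in NT-LW, beside 35.0%, 31.4% and 28.1% of all compared genes, and 0 were called lower. The NT-LW calls included CYP1A1 and CYP1B1, cytochromes that hydroxylate estrogens, at 2.28 and 3.42 FPKM.

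Receptors, coregulators and transporters were mixed. Of 13 coregulators and related receptors, 4 were called higher at the 8-cell stage in IV-D (NCOA4, NCOA7, PELP1 and PHB2) and 4 lower (PGRMC2, ESRRG, NCOA3 and NCOR1), shares near the 35.0% and 28.1% of all compared genes. In NT-D 1 of 13 compared was higher and 5 were lower, beside 31.4% and 28.7% of all compared genes. In NT-LW 0 of 11 compared were higher and 3 lower, beside 28.1% and 25.6% of all. NCOA7, a nuclear receptor coactivator, went from 0.585 to 33.5 FPKM in IV-D, from 2.77 to 6.08 in NT-D and from 3.05 to 5.93 in NT-LW, and its call was made in IV-D alone, a difference between groups that was not tested. ABCC2, an exporter of sulfate and glucuronide conjugates, was called lower in the 3 groups (26.5 to 0.662 FPKM in IV-D). Among nuclear receptors and other factors listed for their action on liver sulfotransferase genes, NR1H4, the bile acid receptor, PPARG and NR2F1 were called lower in the 3 groups, and NFE2L2, a bZIP factor of the stress response, was called higher in the 3 groups.

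**Figure D4:**
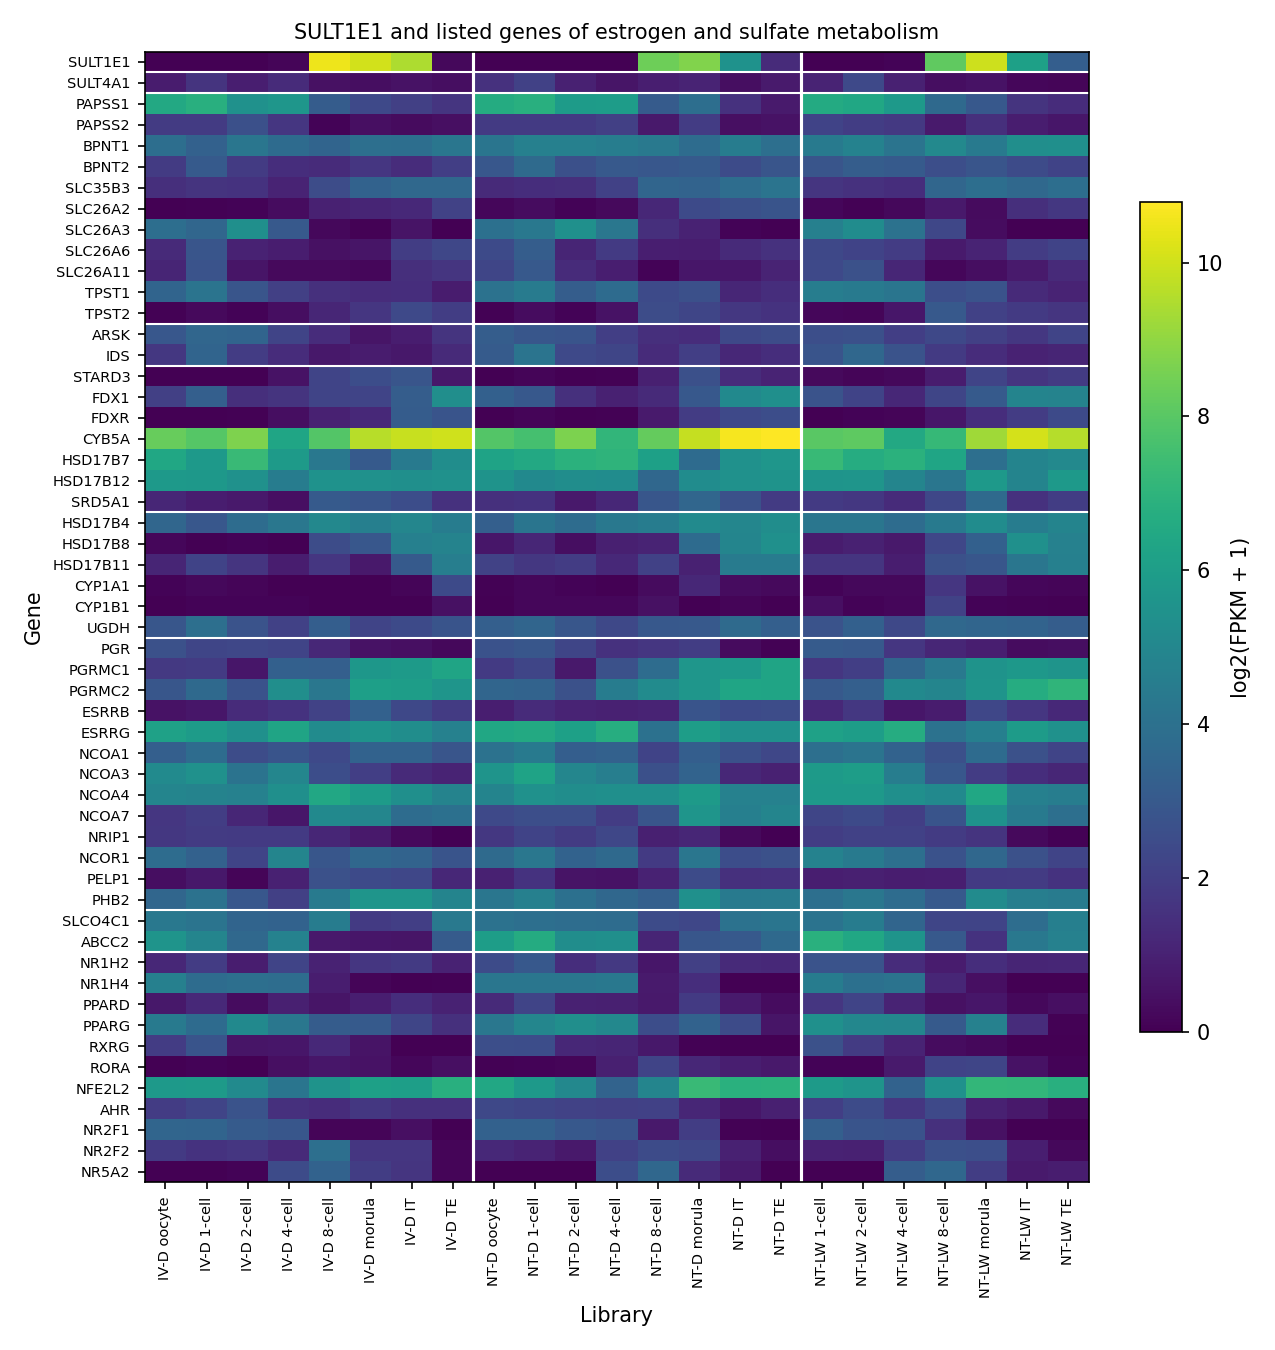
Levels (log2(FPKM + 1), colour) of SULT1E1 in the top line and of the 53 listed genes of sulfate and estrogen metabolism in the 23 libraries, with thin white lines between lists and thick ones between embryo groups. SULT1E1 is dark up to the 4-cell stage and bright from the 8-cell stage to IT, while PAPSS1 is bright up to the 4-cell stage and darker after it.

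The genes with the profile most like SULT1E1 were found by Pearson r of log2(FPKM + 1) over the 23 libraries among 5645 named genes that reached 10 FPKM somewhere. KCTD1 (r = 0.955), PPA2 (0.952), RIOX2 (0.948), SLC34A2 (0.948), COX19 (0.946), ETNPPL (0.942), ELF2 (0.937), ZNF385D (0.932), SEPHS1 (0.929) and PLPP3 (0.929) were the first 10. The median of all genes searched was 0.23 and the 95th percentile 0.833, and 48 genes exceeded 0.9. The libraries share embryo groups and stages, so these r values describe 23 dependent points. The first 10 depended on the measure, and 5 of them remained with a pseudocount of 0.1 and 0 with Spearman's rho, where SORD stood first (rho = 0.965).

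The highest level of each of these genes over the 23 libraries was below that of SULT1E1, though in single libraries some stood above it, such as ETNPPL in NT-LW TE (50.7 against 8.23 FPKM). SLC34A2, a sodium phosphate cotransporter, was at 81.3, 70.9, 24.3 and 1.88 FPKM in 8-cell, morula, IT and TE of IV-D and at most 3.01 FPKM in any library before the 8-cell stage. ETNPPL, a phospholyase of phosphoethanolamine, reached 454 FPKM in the IV-D morula, 347 in NT-D and 383 in NT-LW, and its highest library was the morula in all 3 groups. PPA2, the mitochondrial pyrophosphatase, was already at 15.3 to 28.4 FPKM up to the 4-cell stage. ZNF385D, a zinc finger gene, had its IV-D peak at the 8-cell stage (30.9 FPKM) and its clone peaks in the morula (10.5 and 15.4). SULT1E1 had the same peaks on the deposited scale, though its NT-D peak depended on the scaling.

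Over the 12 libraries from the 8-cell stage on, another set was closest. RUNX1T1, a transcriptional corepressor, had r = 0.984, DUSP18, a phosphatase, 0.981, PNN, a splicing-associated desmosome protein, 0.964, MRTO4, a ribosome assembly factor, 0.961, and TDRKH, a piRNA pathway protein, 0.958. RUNX1T1 was at 35.1, 43.6, 29.1 and 0.0445 FPKM in 8-cell, morula, IT and TE of IV-D, and at 24.2, 3.28 and 0.0853 in morula, IT and TE of NT-D. Unlike SULT1E1 it was at 25.0 to 72.5 FPKM in the 11 libraries up to the 4-cell stage.

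**Figure D5:**
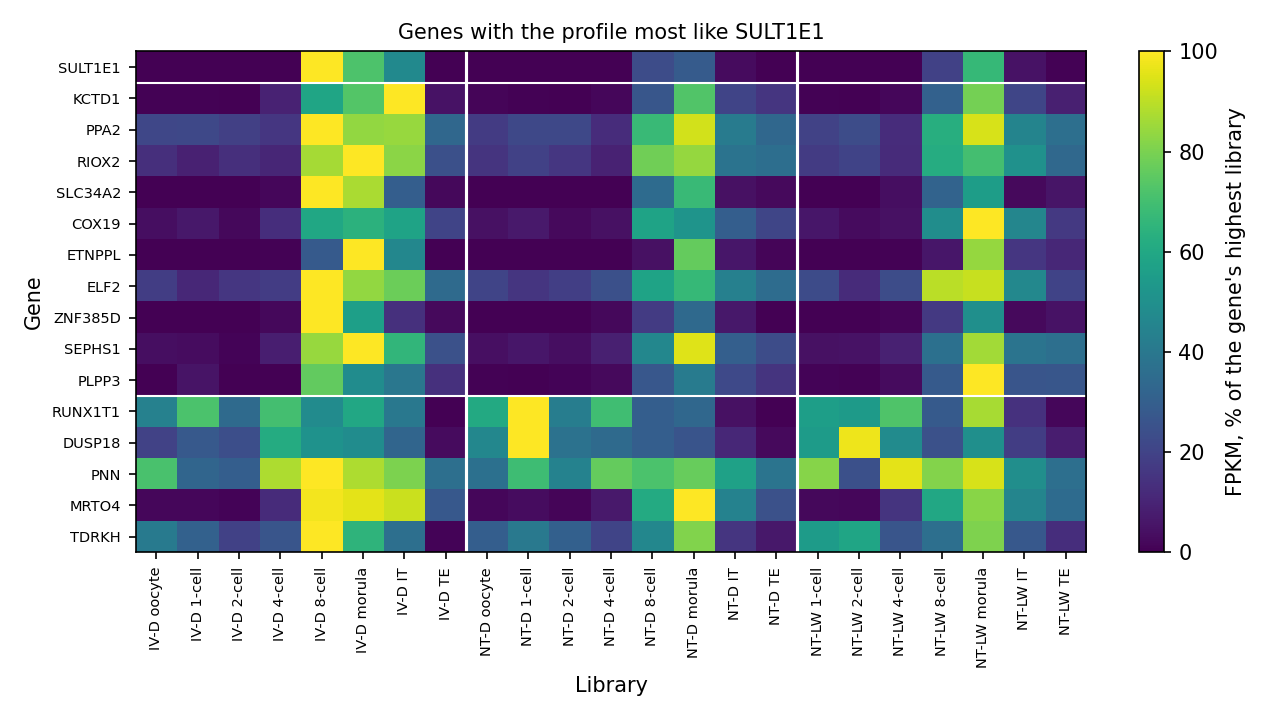
FPKM as a percentage of each gene's highest library for SULT1E1 (top), the 10 genes most like it over 23 libraries (middle) and the 5 most like it over the 12 libraries from the 8-cell stage on (bottom). The middle set is dark up to the 4-cell stage except for a low level in genes such as PPA2, and RUNX1T1 and DUSP18 are bright before the 8-cell stage.

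The genes around SULT1E1 were called in both directions at the step at which it rose. RefSeq lists 50 genes within 1 Mb of it on chromosome 8, and 8 of them were in the table, the nearest of these, AMTN, 474 kb away. Between the 4-cell and the 8-cell stage 1 of the 8 was called higher and 3 lower in IV-D, 2 higher and 2 lower in NT-D, and 0 higher and 2 lower in NT-LW, beside 35.0% higher and 28.1% lower of all compared genes in IV-D, 31.4% and 28.7% in NT-D and 28.1% and 25.6% in NT-LW. AMTN, which encodes the enamel protein amelotin (67312108 to 67327775), was the gene called higher in IV-D, from 1.47 to 102 FPKM. Its level was 107 FPKM at the 8-cell stage of NT-D and 0.0952 at that of NT-LW, where it reached 32.5 in the morula. SULT1E1 was at 287 FPKM in the same NT-LW 8-cell library, where AMTN had 1 fragment, so AMTN did not rise with SULT1E1 there. In IV-D and NT-D both genes were called higher at the 8-cell stage. The neighbouring sulfotransferase gene models LOC110262013 and LOC100624541 were not analysed here.

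The counts behind SULT1E1 rest on the authors' annotation. The FPKM values implied a gene length of 3778 bases, whereas the RefSeq exons of SULT1E1 cover 2203 bases, and which further bases the annotation counted was not examined. A search of the 9 RefSeq exon blocks against Sscrofa11.1 found 19667 alignments of 100 to 298 bases outside the locus, the highest at 98.3% identity, and all of them fell in 2 of the blocks. The other 7 blocks had no alignment of any length elsewhere with an E value of at most 1e-05, the neighbouring sulfotransferase genes included. The library totals implied by the FPKM values were 14952784 to 22991067 fragments, which need not be all fragments sequenced. Of these totals, 82.8% to 97.2% lay in the genes of the table.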

How the data were processed

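RNA was sequenced from 23 pooled oocyte and embryo samples after SMART-Seq v4 amplification. The authors aligned reads with HISAT2 2.0.4, counted fragments with HTSeq 0.9.1 on Sscrofa11.1, per the labels and methods, and gave 8603 genes in FPKM, that is, fragments scaled to gene length and library size, in the table they deposited. The table is labelled as one of DEG genes, but the rule by which they were selected is not given in the sources used here. Whether counting used strand is not given in the sources used here. SULT1E1 and all gene lists were chosen with earlier results of these data known. Genes withheld from the lists are not reported here.

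Whole fragments were recovered from the steps of the FPKM values (8602 of 8603 genes whole within 0.02 fragments). They gave Poisson and binomial counting intervals (95%), a limit of 3 fragments for a count of 0, and the library totals behind the FPKM values. With 1 library per condition no test was run. Differences were taken as log2(FPKM + 1), with the call rule and named genes stated in the report. Genes named were SULT1E1, its 10 and 5 most similar genes, listed genes that passed the rule or reached 10 FPKM or were at or near 0, and genes within 1 Mb, together with CKB, LOC110262013 and LOC100624541, which were added after the values were seen. Symbols matched 7371 identifiers. Promoter windows and exons were read from RefSeq with samtools 1.23.1 and blastn 2.17.0, and values were computed in Python 3.11.15 with SciPy 1.17.1. The fragment recovery and calls were tested on simulated data. Pseudocount, minimum FPKM, scaling and similarity measure were varied.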

Additional observations from a re-analysis of the deposited data

Results flagged for a closer look

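On the deposited scale the step from the 8-cell stage to the morula went in opposite directions in the embryo groups. SULT1E1 differed by −0.47 on the log2(FPKM + 1) scale in IV-D and by 0.31 in NT-D and 1.78 in NT-LW. In NT-D the direction turned to that of IV-D with median-ratio (−0.17) and trimmed-mean (−0.21) scaling, and the difference less the median of all compared genes was −0.14, so the opposite direction held under every scaling run for NT-LW alone. Each group had 1 library per stage, so the difference between the groups was not tested.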

How the results depend on the processing

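Of 108 recomputed SULT1E1 log2 differences (27 comparisons under a pseudocount of 0.1, table sums set to 1000000, median-ratio and trimmed-mean scaling), 106 kept their direction and their side of the fold rule. The other 2 were the NT-D step from the 8-cell stage to the morula, at −0.17 with median-ratio and −0.21 with trimmed-mean scaling. Of 68 recomputed counts of all genes, 8 left a range of 1.5 times the count reported. Genes higher in IT than TE in NT-D numbered 165 with a minimum of 5 FPKM and 478 with a pseudocount of 0.1 (292 as reported), and in NT-LW 214, 623 and, with median-ratio scaling, 205 (345 as reported). With median-ratio scaling 491 genes were lower in NT-D than IV-D morulae (305 as reported) and 1146 higher in the NT-LW morula than at the 8-cell stage (1729), and with a pseudocount of 0.1 337 genes were higher in NT-D than IV-D TE (209). Listed genes higher at the NT-LW 8-cell stage numbered 5 with a minimum of 5 FPKM (10 as reported), and those higher at the NT-D 8-cell stage 5 with median-ratio scaling (8 as reported). Of the 10 genes most like SULT1E1, 0 were kept by Spearman's rho, 5 by a pseudocount of 0.1, 2 among genes reaching 100 FPKM, 1 in IV-D libraries alone and 2 in nuclear transfer libraries alone. Without the IV-D IT library, a choice made after seeing the data, 7 were kept. The cause was not tested. No paired analysis was possible because each condition was 1 library, so that groups compared shared fewer than 2 replicate numbers. Depth limits the levels before the 8-cell stage and in IV-D TE, where 0 to 10 fragments were counted.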
